A study of Mus musculus with 6 samples.

Results

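The laminin chains are described here in cancer-associated fibroblasts (CAFs) sorted from mouse colonic tumors. The 9 genes Lama2, Lama3, Lama4, Lama5, Lamb1, Lamb2, Lamb3, Lamc1 and Lamc3 were found by their gene symbol in the deposited table of 49548 genes. All 9 had enough counts to be tested, among 26402 genes tested in all. Lama1, which is not among the 9, is given beside them.

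The 6 libraries came from adenomas of Col6a1-cre, Rosa26-mTmG mice of the C57/BL6 strain, all of which received AOM, a carcinogen, and DSS, which injures the colonic epithelium (AOM/DSS). Tumor cells positive for CD45, EpCAM, CD31 or Ter119 were excluded by sorting, and the remaining cells were split into GFP+ cells (Col6a1+ CAFs, n = 3) and Tomato+ cells (Col6a1- CAFs, n = 3). In the mTmG reporter, cells carry membrane Tomato until Cre switches them to GFP, which therefore marks cells with present or past Col6a1-cre activity, and the Col6a1- CAFs are defined only by the lack of it. Per the study, this Cre acts mainly in fibroblasts with high PDGFRA and in perivascular cells, and every sample was a pool of tumors from several mice. The ages of the mice in each library are not given in the labels, nor do they say whether same-numbered libraries of the subsets came from 1 pool. All p-values therefore measure the spread between these libraries.

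The authors sequenced the 3′ ends of polyadenylated transcripts (QuantSeq), counted reads per gene on mm10 and divided them by DESeq size factors, and the normalized counts given below are in that unit. A difference in level between genes is not read from these 3′ end counts, and the shares given below are compared only between the subsets. The sums of normalized counts per library were 3039152 to 3425249. About 2571562 to 4518513 reads per library were estimated from the step between low values. Between 18770 and 20511 genes were detected in 5 libraries and 14530 in Col6a1+ replicate 1. The mean level of Col6a1 was 1363 ± 544 in the GFP+ and 202 ± 111 in the Tomato+ libraries (normalized counts, SD, n = 3), in the direction of the labels. The fibroblast markers were present in both subsets, with summed counts of 40537 to 44819 in Col6a1+ and 8880 to 15901 in Col6a1- CAFs.

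Laminins are large secreted glycoproteins of basement membranes, the thin sheets of matrix under epithelia and around vessels, muscle and nerve. Each molecule is a coiled trimer of 1 alpha, 1 beta and 1 gamma chain, and the short arms of the chains join into a network. The globular end of the alpha chain binds integrins and dystroglycan on cells, so the alpha chain largely sets which receptors a laminin engages. In the gut, the alpha5 chain is the major chain of the epithelial basement membrane, the alpha2 and alpha4 chains lie mostly in mesenchymal, muscle and vascular basement membranes, and the laminin that holds the alpha3 and beta3 chains is made by epithelial cells and anchors hemidesmosomes.

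Start regions are shown for the called chain genes other than Lamc1, because 4 chains were higher and 1 was lower in Col6a1+ CAFs. Promoter windows (RefSeq, GRCm38.p6) were used for 5 of the 9 genes, which are Lama2, Lama5, Lamb1, Lamb2 and Lamb3. No window was used for the other chains, Lamc1 among them, which does not mean that no start is annotated for them. Each of the 4 windows of 300 bases below spans 1 start from the promoter set used. Lamb3 has 2 starts in that set, of which the upstream one is shown. The gene span of Lamb3 begins at 193207699, upstream of both its windows. That of Lama2, on the minus strand, begins at 27619758, upstream of its window. Other starts of these 2 genes may thus lie outside the windows. Capitals mark GC boxes (GGGCGG on either strand) and AP-1 motifs (TGANTCA, a palindrome).
Lama2 (chr10:27616893-27617192, minus strand): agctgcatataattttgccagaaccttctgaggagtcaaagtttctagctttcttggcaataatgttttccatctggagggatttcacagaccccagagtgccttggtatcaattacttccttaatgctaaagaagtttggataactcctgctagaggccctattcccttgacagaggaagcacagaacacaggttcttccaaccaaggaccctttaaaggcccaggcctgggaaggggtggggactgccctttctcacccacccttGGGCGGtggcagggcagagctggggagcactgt
Lamb1 (chr12:31265043-31265342, plus strand): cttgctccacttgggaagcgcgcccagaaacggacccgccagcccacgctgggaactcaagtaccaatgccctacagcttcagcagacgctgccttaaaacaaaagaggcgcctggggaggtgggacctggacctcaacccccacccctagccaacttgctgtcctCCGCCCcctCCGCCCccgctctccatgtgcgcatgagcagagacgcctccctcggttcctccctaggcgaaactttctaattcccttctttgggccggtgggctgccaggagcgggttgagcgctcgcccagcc
Lamb2 (chr9:108479612-108479911, plus strand): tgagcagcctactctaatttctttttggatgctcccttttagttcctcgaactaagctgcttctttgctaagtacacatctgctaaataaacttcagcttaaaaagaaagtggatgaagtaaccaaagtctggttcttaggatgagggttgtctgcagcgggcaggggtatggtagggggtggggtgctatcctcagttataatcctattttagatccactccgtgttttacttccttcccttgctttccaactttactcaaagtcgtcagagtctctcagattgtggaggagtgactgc
Lamb3 (chr1:193301744-193302043, plus strand): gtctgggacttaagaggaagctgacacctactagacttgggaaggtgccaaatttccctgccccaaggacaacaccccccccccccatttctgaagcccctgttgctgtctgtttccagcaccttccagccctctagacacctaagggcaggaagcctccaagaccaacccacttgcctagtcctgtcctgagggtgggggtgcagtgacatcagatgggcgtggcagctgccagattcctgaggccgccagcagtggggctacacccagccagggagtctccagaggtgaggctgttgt
Of the 32851 mouse promoters of this length, 35.7% hold a GC box and 7.81% an AP-1 motif. GC boxes were found in the window of Lama2 (1), Lama5 (4) and Lamb1 (2), and in neither Lamb2 nor Lamb3. None of the 5 genes had an AP-1 motif in its window. The GC content was 63.7% for Lamb1, 59.3% for Lamb3, 50.3% for Lama2 and 44.0% for Lamb2, against a median of 52.7% over all promoters. A CArG box, the binding site of serum response factor, began at position -39 from the start used for Lama2. It occurs in 1.63% of all promoters. An E box (CANNTG, the same on both strands) was found in all 5 genes and in 72.3% of all promoters, and TATAAA, present in 13.6%, in none of them. CCAAT, on either strand, occurred in Lamb1 alone among the 5 and in 37.4% of all promoters. These motifs do not overlap one another in the printed windows and are matches of letters, with no measurement of binding.

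Of the 9 genes, 4 were higher in Col6a1+ than in Col6a1- CAFs (Lama2, Lamb1, Lamb2 and Lamc1), 1, a chain of the epithelial hemidesmosome laminin, was lower (Lamb3) and 4 did not pass (Lama3, Lama4, Lama5 and Lamc3). The test was limma on the log2 normalized counts plus 1, with Benjamini-Hochberg adjustment over all 26402 genes and a call at an adjusted p under 0.05, and it called 2.66% of all genes higher and 1.96% lower. A positive log2 fold change, taken between the subset means of the log2 values, is higher in Col6a1+ CAFs. Its median over the 9 chains was 1.61 (range -2.20 to 3.53), and over all genes tested it was -0.27. All 3 Col6a1+ libraries lay above all 3 Col6a1- libraries for 6 chains, as for 7.91% of all genes, and below them for 1 chain, as for 11.6% of all genes. In these bulk samples, fewer cells of a type and less RNA per cell cannot be told apart.

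**Figure D1:**
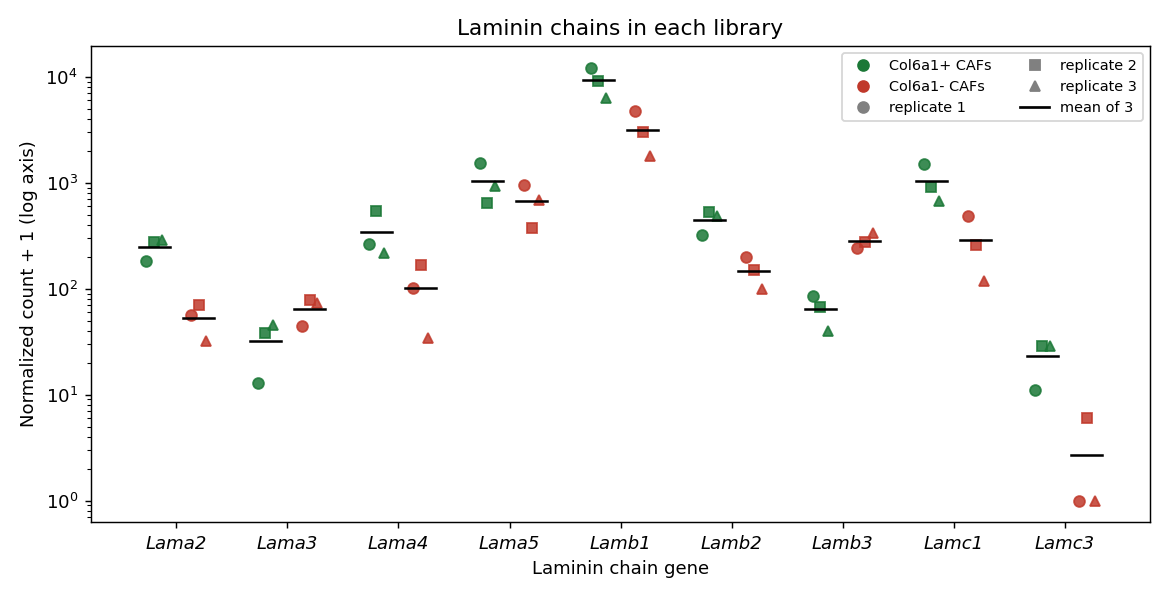
Normalized count plus 1 (log axis) of the 9 laminin chain genes in each of the 3 Col6a1+ (green) and 3 Col6a1- (red) CAF libraries, with replicate numbers as marker shapes and a bar at the mean of 3. The green points lie above all red points for Lama2, Lama4, Lamb1, Lamb2, Lamc1 and Lamc3, below them for Lamb3, and among them for Lama3 and Lama5.

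Among the alpha chains, Lama2 (chromosome 10, 26980036 to 27619758, minus strand, mm10) encodes the chain of muscle and mesenchymal basement membranes whose loss causes a congenital muscular dystrophy. Its normalized counts were 183, 273 and 289 in Col6a1+ replicates 1 to 3 and 55, 69 and 31 in Col6a1- replicates 1 to 3. Every Col6a1+ library was above every Col6a1- library. The means were 248 ± 57.1 and 51.7 ± 19.2 (SD, n = 3), a 4.88-fold difference (95% interval 2.58 to 9.24), with a log2 fold change of 2.29 (SE 0.42, limma adjusted p = 0.0125). Within same-numbered libraries the ratio was 3.33, 3.96 and 9.32. No overlapping gene on either strand had more than 3 normalized counts in a library.

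Lama4 (chromosome 10, 38965515 to 39110188, plus strand) encodes a shorter alpha chain of vascular and mesenchymal basement membranes. Its counts were 265, 536 and 214 in the Col6a1+ libraries and 100, 167 and 33 in the Col6a1- libraries, with no overlap, but with a wide spread inside each subset. The means were 338 ± 173 and 100 ± 67.0 (SD, n = 3), and the log2 fold change of 1.91 (SE 0.58, 95% interval 0.64 to 3.19) did not pass (limma adjusted p = 0.0989). Replicate 2 was the highest and replicate 3 the lowest library in both subsets, and the ratios within numbers were 2.65, 3.21 and 6.48.

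Lama5 (chromosome 2, 180176373 to 180225859, minus strand) encodes the main alpha chain of the gut epithelial basement membrane. Its counts were 1538, 639 and 925 in Col6a1+ CAFs and 941, 369 and 683 in Col6a1- CAFs. The subsets overlapped, and in each of them replicate 1 was highest and replicate 2 lowest. The means of 1034 ± 459 and 664 ± 287 (SD, n = 3) gave a log2 fold change of 0.65 (95% interval -0.28 to 1.57, limma adjusted p = 0.512). The interval still includes a difference of up to 2.96-fold. The ratios within numbers were 1.63, 1.73 and 1.35, so the Col6a1+ library was the higher one in all 3 pairs.

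Lama3, on chromosome 18, encodes the alpha chain of the epithelial hemidesmosome laminin. Its counts were 12, 37 and 44 in Col6a1+ CAFs and 43, 77 and 72 in Col6a1- CAFs, and the highest Col6a1+ library (44) was just above the lowest Col6a1- library (43). The means were 31 ± 16.8 and 64.0 ± 18.4 (SD, n = 3), and the log2 fold change of -1.16 (SE 0.60, 95% interval -2.49 to 0.16) did not pass (limma adjusted p = 0.385). Within numbers, the Col6a1+ library held 0.279, 0.481 and 0.611 of the count of the Col6a1- library.

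Lama1, the alpha chain of embryonic basement membranes that is not among the 9, had 77, 124 and 188 counts in Col6a1+ and 27, 75 and 23 in Col6a1- CAFs. The subsets did not overlap, by 2 counts, and the log2 fold change of 1.72 (SE 0.55) did not pass (limma adjusted p = 0.123).

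Of the beta chains, Lamb1 (chromosome 12, 31265234 to 31329644, plus strand) encodes the beta chain of most laminins. Its counts of 12218, 9223 and 6327 in Col6a1+ CAFs lay above the 4743, 2987 and 1769 of Col6a1- CAFs. In both subsets, replicate 1 was the highest and replicate 3 the lowest library. The means were 9256 ± 2946 and 3166 ± 1495 (SD, n = 3), a 3.05-fold difference with a log2 fold change of 1.61 (SE 0.40, 95% interval 0.73 to 2.49, limma adjusted p = 0.0468). The ratios within numbers, 2.58, 3.09 and 3.58, were close to each other.

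Lamb2 (chromosome 9, 108479736 to 108490530, plus strand) encodes the beta chain known from the neuromuscular synapse, the kidney glomerulus and vessel walls. It had 318, 529 and 482 counts in Col6a1+ CAFs and 196, 148 and 98 in Col6a1- CAFs, without overlap. The means of 443 ± 111 and 147 ± 49.0 (SD, n = 3) differed 3.04-fold, with a log2 fold change of 1.60 (SE 0.36, 95% interval 0.80 to 2.41, limma adjusted p = 0.0321). Replicate 1 was the lowest Col6a1+ and the highest Col6a1- library, so the ratio within its pair, 1.62, was below the 3.57 and 4.92 of the other pairs.

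Lamb3 (chromosome 1, 193207699 to 193343878, plus strand), the beta chain of the epithelial hemidesmosome laminin, was the only one of the 9 that was lower in Col6a1+ CAFs under the main test. Its counts were 85, 66 and 39 in Col6a1+ CAFs and 239, 276 and 332 in Col6a1- CAFs, and no library of one subset reached the range of the other. The means were 63.3 ± 23.1 and 282 ± 46.8 (SD, n = 3), 4.58-fold lower in Col6a1+ CAFs (95% interval 2.52 to 8.32), with a log2 fold change of -2.20 (SE 0.39, limma adjusted p = 0.0111). The genes Hsd11b1 and G0s2 lie within its span on the other strand. Hsd11b1 had 31, 53 and 36 counts in Col6a1+ and 158, 124 and 43 in Col6a1- CAFs, and G0s2 had 33 to 82 and 38 to 73. Whether the counting used the strand is not given in the sources used here, so reads of Lamb3 and of these genes may not be fully separated.

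Lamc1 (chromosome 1, 153218922 to 153332786, minus strand) encodes the gamma chain shared by most laminins. Its counts were 1506, 913 and 672 in Col6a1+ CAFs and 488, 257 and 116 in Col6a1- CAFs. The subsets did not overlap, and the libraries of each took the same order as for Lamb1. The means of 1030 ± 429 and 287 ± 188 (SD, n = 3) differed 3.97-fold, with a log2 fold change of 1.99 (SE 0.50, 95% interval 0.89 to 3.09, limma adjusted p = 0.0492). The ratios within numbers were 3.09, 3.55 and 5.79. The pseudogene Gm8818 on the other strand and the transcript Gm38009 on the same strand lie within Lamc1, with at most 69 and 29 counts in a library.

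Lamc3 (chromosome 2, 31887291 to 31946539, plus strand) encodes a gamma chain known from mutations that disturb the folding of the cerebral cortex. It had 10, 28 and 28 counts in Col6a1+ CAFs and 0, 5 and 0 in Col6a1- CAFs, and a count of 0 allows up to 3 counts. No Col6a1- library reached the lowest Col6a1+ library. The means were 22.0 ± 10.4 and 1.67 ± 2.89 (SD, n = 3). Its log2 fold change of 3.53 (SE 1.08, 95% interval 1.13 to 5.93) did not pass (limma adjusted p = 0.105) and depended on the number added before the log, from 2.01 with 5 added to 5.75 with 0.1 added. With limma-voom on the normalized counts, the adjusted p was 0.0210.

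**Figure D2:**
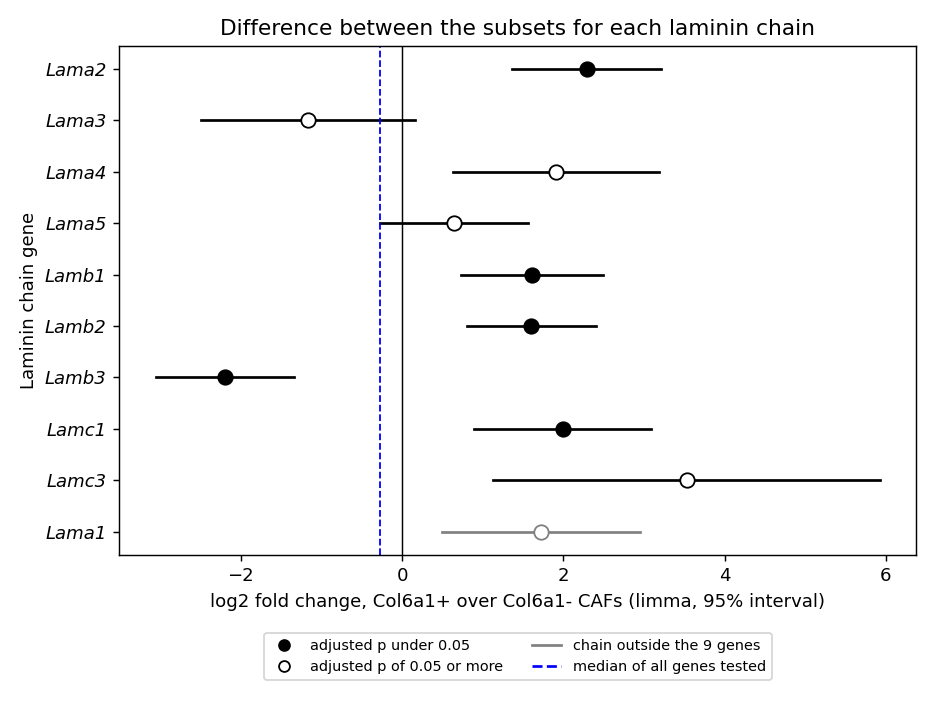
Log2 fold change of Col6a1+ over Col6a1- CAFs with its 95% limma interval for the 9 laminin chains (black) and Lama1 (grey), filled where the adjusted p was under 0.05, with the median of all genes tested (-0.27) as a dashed line. Lama2, Lamb1, Lamb2 and Lamc1 lie to the right of 0 and Lamb3 to the left, each with an interval that leaves out 0. The intervals of Lama4, Lamc3 and Lama1 also leave out 0, though these genes did not pass after adjustment.

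The calls rested on all 6 libraries. When any 1 of the 3 Col6a1+ or the 3 Col6a1- libraries was left out, none of the 9 chains passed an adjusted p of 0.05, and only 0 to 98 genes of the table were called higher and 0 to 166 lower. The adjusted p-values (limma) then lay between 0.0630 and 0.180 for Lama2, 0.136 and 0.382 for Lamb1, 0.0785 and 0.241 for Lamb2, 0.0538 and 0.145 for Lamb3, and 0.128 and 0.389 for Lamc1. Their fold changes kept their sign. That of Lama2 stayed between 1.97 and 2.53, Lamb1 between 1.25 and 1.96, Lamb2 between 1.34 and 1.84, Lamb3 between -2.44 and -1.89, and Lamc1 between 1.46 and 2.49 on the log2 scale. At an unadjusted p under 0.05, 3 to 6 chains were higher and 1 was lower in these fits, with 5 and 1 when the library left out was Col6a1+ replicate 1, which had the fewest genes detected. Of all 26402 genes, 1460 to 2434 were higher and 1968 to 2639 lower at that threshold in these fits. With all libraries, 6 and 1 passed at an unadjusted p under 0.05 (6.63% and 9.4% of all genes), and the same numbers when the change also had to exceed 1 on the log2 scale (6.09% and 8.61%).

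The deviations of same-numbered libraries from their group means correlated weakly, at 0.245, 0.125 and 0.144. Col6a1+ replicate 2 and Col6a1- replicate 3 reached 0.150, so these values do not establish pairs. The numbers were read as pairs as a second way to fit the data. In the fit that took the number as a block, 0 genes of the table passed (smallest adjusted p 0.0612). The blocked adjusted p-values (limma) were 0.0916 for Lama2, 0.0612 for Lamb1, 0.144 for Lamb2, 0.0975 for Lamb3 and 0.0662 for Lamc1. At an unadjusted p under 0.05 in the same blocked fit, 7 of the 9 chains were higher and 2, Lama3 and Lamb3, were lower, against 7.01% and 9.72% of all genes. When the block was fitted to 13515 genes that averaged 10 or more normalized counts, 5 chains were higher, Lama4 having joined the 4 others (adjusted p = 0.0116), and Lamb3 was lower (adjusted p = 0.0102). That fit called 7.26% of its genes higher and 6.44% lower.

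**Figure D3:**
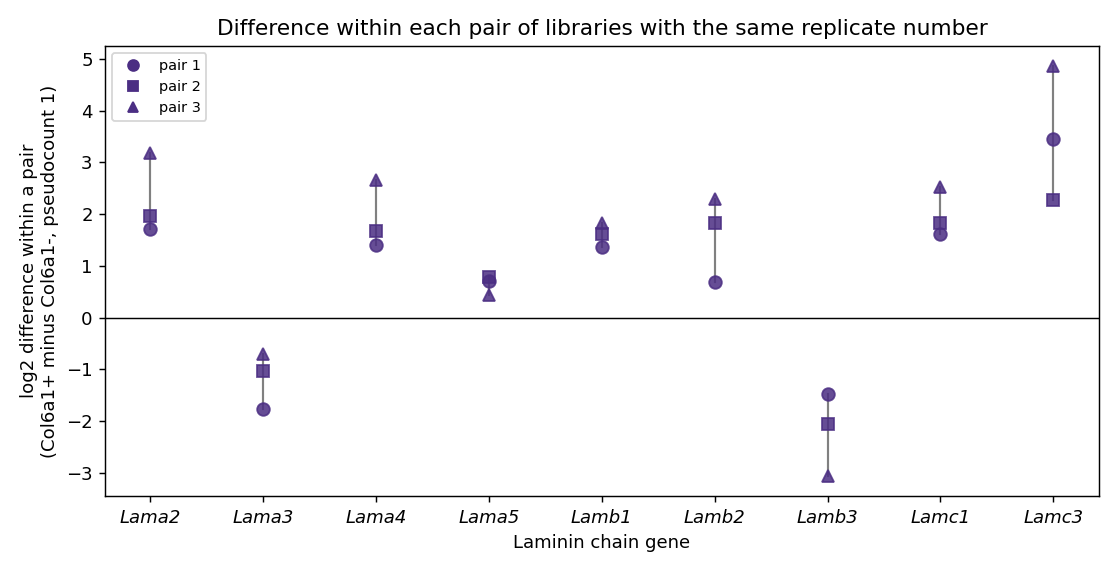
Log2 difference between the Col6a1+ and the Col6a1- library of the same replicate number for each laminin chain, 1 point per pair, with a line over the range. All 3 pairs are above 0 for 7 chains and below 0 for Lama3 and Lamb3, and Lama5, with ratios of 1.35 to 1.73, lies closest to 0.

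The sign of the difference was the same in all 3 pairs for every chain. It was positive for 7, as for 12.3% of all genes, and negative for 2, as for 18.8% of all genes. The median log2 difference of the 9 chains was 1.36, 1.68 and 2.29 in pairs 1, 2 and 3, while that of all genes was -0.16, -0.07 and -0.08.

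The chains differed widely in how near their patterns over the 6 libraries lay to one another. After subtracting each gene's mean log2 value, the root mean square difference was 0.28 between Lamb1 and Lamc1, whose products share most trimers, and 0.41 between Lama2 and Lamb2, and 0.48 between Lamb1 and Lamb2. The farthest pair was Lamb3 and Lamc3, at 3.09. These distances include the difference between the subsets and are a description over 6 libraries. For each called chain, the nearest genes outside the 9, given below, lay closer than the closest pair of chains. They were picked from 13506 genes, so their smaller distances do not show how alike the chains are.

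The alpha and beta chains of the hemidesmosome laminin, Lama3 and Lamb3, held a larger share of their class in every Col6a1- than in every Col6a1+ library. The share of a chain is its normalized count as a percent of the summed counts of the alpha or the beta chains among the 9 in a library. Among the beta chains, Lamb3 held 0.673%, 0.672% and 0.570% in Col6a1+ CAFs and 4.62%, 8.09% and 15.1% in Col6a1- CAFs. Lamb1 held 94.4% ± 2.24 and 86.5% ± 5.65 (SD, n = 3), without overlap, and Lamb2 held 4.98% ± 2.29 and 4.19% ± 0.358, with overlap.

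Among the 4 alpha chains of the 9, Lama3 held 2.03% ± 1.26 in Col6a1+ and 7.95% ± 3.83 in Col6a1- CAFs (SD, n = 3), without overlap. Lama2 held 15.7% ± 5.72 and 6.24% ± 3.39, with overlap. Lama4 held 21.3% ± 12.8 and 12.4% ± 10.7, and Lama5 60.9% ± 17.1 and 73.4% ± 16.7, and both overlapped widely. Leaving out 1 library moved the difference in share, Col6a1+ minus Col6a1-, from 8.87 points to between 1.47 and 14.9 for Lama4, and from -12.4 points to between -22.1 and -3.46 for Lama5. For both chains the smallest difference came without Col6a1+ replicate 2 and the largest without Col6a1- replicate 2. In the exact two-sided permutation test, 3 against 3 libraries cannot give a p below 0.1, which Lama3, Lamb1 and Lamb3 reached (p = 0.1 each, adjusted 0.3 over 9 shares), while exact p was 0.2 for Lama2, 0.5 for Lama4 and Lama5, and 0.7 for Lamb2.

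**Figure D4:**
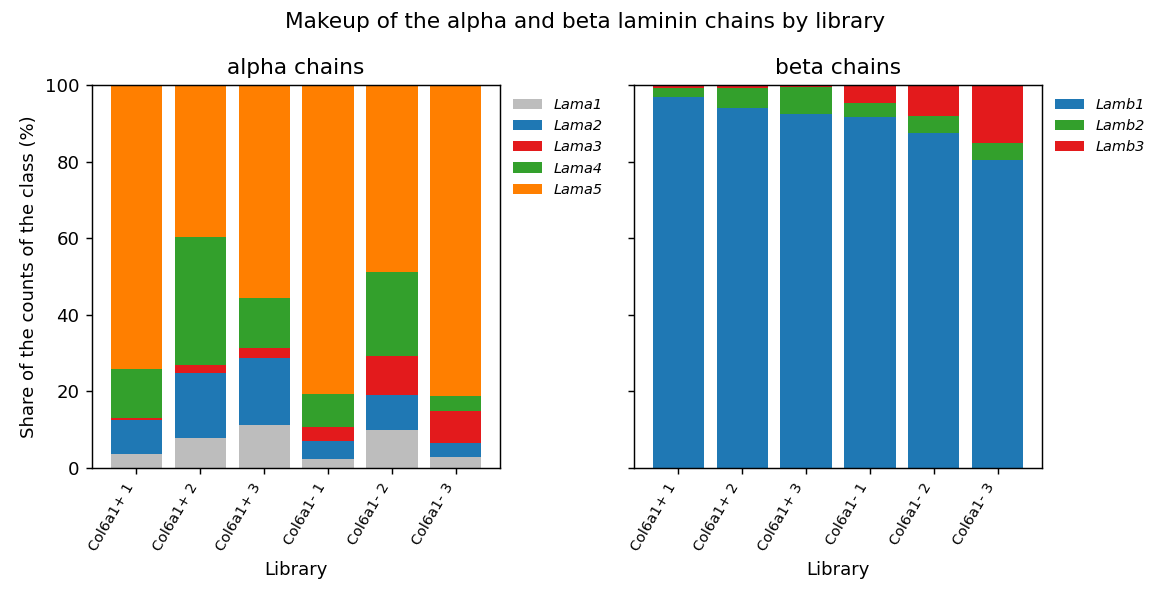
Share of each alpha chain (Lama1 included) and beta chain in the normalized counts of its class, as stacked bars from 0 to 100% for each library. Lamb3 (red, right) takes at most 0.673% in Col6a1+ libraries and at least 4.62% in Col6a1- libraries, and Lama3 (red, left) at most 2.65% and at least 3.69%.

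Laminin receptors split in 2 directions. Of 10 receptor genes tested, 3 were higher (Itga7, Itga1 and Itgb1), 2 were lower (Itgb4 and Itga6) and 5 did not pass, with a median log2 fold change of 0.10. Itga7, the laminin integrin of muscle and mural cells, had 920, 429 and 415 counts in Col6a1+ and 15, 33 and 13 in Col6a1- CAFs (log2 fold change 4.80, SE 0.48, limma adjusted p = 8.81e-04). Itga1, which binds collagen IV and laminin, had 582, 366 and 688 against 54, 21 and 30 (log2 fold change 3.98, adjusted p = 0.00131). Itgb1, the common beta subunit, had a log2 fold change of 1.88 (adjusted p = 0.0208). The other receptor pair, Itga6 and Itgb4, forms the hemidesmosome integrin that holds the laminin of Lama3 and Lamb3. Itgb4 had 150, 92 and 100 counts in Col6a1+ and 734, 427 and 336 in Col6a1- CAFs (log2 fold change -2.07, adjusted p = 0.0125), and Itga6 had 185, 247 and 209 against 550, 711 and 981 (log2 fold change -1.77, adjusted p = 0.0109). Dag1, which encodes dystroglycan, overlapped between the subsets, with a log2 fold change of 0.78 (adjusted p = 0.482).

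All 16 other basement membrane genes tested had a positive log2 fold change. Of them, 9 were higher and 7 did not pass, while the main test called 2.66% of all genes higher and 1.96% lower. The median log2 fold change was 2.64, against -0.27 over all genes tested. The sign for Col4a3 rested on 3 counts in 1 Col6a1+ library, with 0 in every other library. Col4a5 had 1, 122 and 48 counts in Col6a1+ and 3, 3 and 3 in Col6a1- CAFs. The nidogens, which bind the gamma1 chain and link laminin to collagen IV, had log2 fold changes of 2.92 (Nid1, SE 0.36, limma adjusted p = 0.00203) and 3.16 (Nid2, adjusted p = 0.00435). Ntn4, a short relative of laminins that binds gamma chains and can disrupt their network, had 223, 333 and 433 counts in Col6a1+ and 5, 55 and 45 in Col6a1- CAFs (log2 fold change 3.68, adjusted p = 0.0209). Col4a2, a collagen IV chain, had 9608, 3858 and 10680 against 967, 782 and 327 (log2 fold change 3.55, adjusted p = 0.00288). Col18a1, the source of endostatin, had a log2 fold change of 3.09 (adjusted p = 0.00232). The remaining 4 that passed were Col4a1, Sparc, Pxdn and Tinagl1. Hspg2, which encodes perlecan, had 0.65 (adjusted p = 0.603) and overlapped between the subsets.

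In the dystrophin complex, which ties dystroglycan and so laminin to the cytoskeleton, 11 of 12 listed genes had counts, 2 were higher, 9 did not pass and the median log2 fold change was 1.77. Dmd, which encodes dystrophin, had 204, 134 and 296 counts in Col6a1+ and 8, 25 and 39 in Col6a1- CAFs (log2 fold change 3.26, limma adjusted p = 0.0126), and the sarcoglycan Sgce had 494, 240 and 354 against 117, 86 and 15 (log2 fold change 2.67, adjusted p = 0.0492). None of the 8 enzymes that build the laminin-binding sugar of dystroglycan passed (limma), none had an unadjusted p under 0.05, and their median log2 fold change was 0.41. As for the chains, 0 of the partner genes passed in the blocked fit, and 0 or 1 when a library was left out. At an unadjusted p under 0.05 in the blocked fit, 4 receptors were higher and 4 lower, and 13 basement membrane genes were higher. In the dystrophin complex, 7 genes were higher and 1 lower. Of all genes, 7.01% were higher and 9.72% lower at that threshold in that fit.

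**Figure D5:**
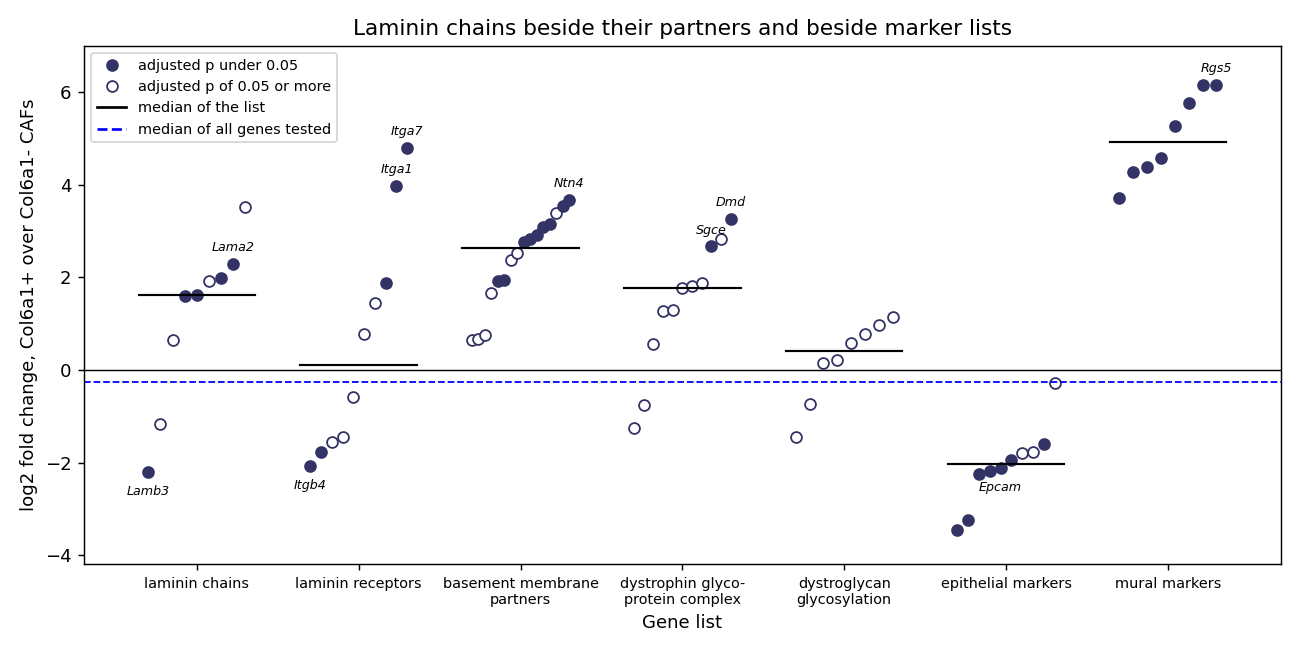
Log2 fold change of Col6a1+ over Col6a1- CAFs for each gene of the laminin chains, of 4 lists of partner genes and of the epithelial and mural marker lists, filled where the limma adjusted p was under 0.05, with the median of each list (bar) and of all genes tested (dashed). The basement membrane list (median 2.64) lies wholly above 0, the receptors spread from -2.07 to 4.80, and the marker lists lie at opposite ends.

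Markers of other cell types also differed between the subsets. Of 8 mural markers, 8 were higher in Col6a1+ CAFs, with summed counts of 42545 to 91813 against 1173 to 2206, and of 7 smooth muscle markers 5 were higher, with 11990 to 23875 against 464 to 2291. None of these markers was at 0 in any library. Of the 8 fibroblast markers, whose sums are given above, 4 were higher in Col6a1+ CAFs (Pdgfra, Col1a1, Col1a2 and Col3a1, log2 fold changes of 2.04, 2.21, 2.50 and 1.81, limma). The median log2 fold change was 1.36 for the fibroblast, 4.93 for the mural, 2.88 for the smooth muscle and -2.04 for the epithelial list. That of the laminin chains was 1.61. Dcn, Vim, Lum and Fbln1 did not pass, with log2 fold changes of 0.91, 0.90, 0.56 and -2.21 (limma). Of 10 epithelial markers, 7 were lower in Col6a1+ CAFs (Epcam, Krt8, Krt18, Krt19, Cdh1, Cldn7 and Muc2), with sums of 5722 to 6365 against 19976 to 33607, although EpCAM+ cells had been excluded by the sort. Epcam itself had 1074, 884 and 615 counts in Col6a1+ and 3107, 4129 and 3730 in Col6a1- CAFs (log2 fold change -2.12, limma adjusted p = 0.00330). The part of these cell types in the values of Lamb3, Lama3, Itga6 and Itgb4 on one side, and of the higher chains on the other, was not tested.

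Immune markers summed to 49 to 81 in Col6a1+ and 410 to 836 in Col6a1- CAFs, with S100a8 and S100a9 lower in Col6a1+ CAFs and the other 8 of 10 not passing, 8 of the 10 being at 0 in some library, Ptprc included. Endothelial markers summed to 128 to 342 and 134 to 339, with Tie1 alone of 8 higher. Tie1 had 220, 56 and 152 counts in Col6a1+ and 1, 7 and 21 in Col6a1- CAFs. Every other endothelial marker had a negative log2 fold change that did not pass, and the median over the 8 was -1.59. The sums of erythroid markers were 110 to 1713 and 281 to 482, and those of glial markers 55 to 73 and 29 to 76, with lowest limma adjusted p-values of 0.556 and 0.197. Mesothelial markers summed to 254 to 355 and 554 to 1363, nearly all of it Krt19, which was lower in Col6a1+ CAFs and is also in the epithelial list.

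The genes whose pattern over the 6 libraries was most like that of each called chain were found among 13506 genes averaging 10 or more normalized counts, by the root mean square difference of log2 values centered on each gene's mean. Nearest to Lamb3 were Gm379 (0.098), the epithelial adhesion gene Epcam (0.15) and St14, an epithelial membrane protease (0.16). Nearest to Lama2 were Col27a1, a fibrillar collagen (0.15), the nuclear receptor Nr4a3 (0.17) and Nckap5 (0.18). Lamb1 was most like Plscr4 (0.14), the focal adhesion gene Parva (0.15) and the complement protease C1s1 (0.15). Lamb2 was most like the protease Bace1 (0.10), the integrin subunit Itga9 (0.14) and the focal adhesion gene Tgfb1i1 (0.15). For Lamc1 they were S100a4, a marker of fibroblasts (0.14), Gm42674 (0.14) and Tgtp2 (0.14). The counts of Gm42674 and S100a4 were equal or 1 apart in every library, so these 2 entries may rest on the same reads.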

How the data were processed

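Groups and replicate numbers of the 6 libraries were taken from their labels. Per the submitters' processing notes and the study's methods, the authors mapped reads with TopHat2 and then Bowtie2 to mm10, counted them per gene and normalized them with DESeq through metaseqR. The deposited table gives the log2 of the normalized count plus 1 per library, and 100% of the values are whole normalized counts (tolerance 1e-06). Its 6 further per-sample columns and its columns of the authors' own comparison (fold changes, p-values) were not used. Since raw counts were not the unit used, limma 3.58.1 in R 4.3.3 was applied to the log2 values (lmFit, then eBayes with a mean trend; prior degrees of freedom 6.48, residual 4) over all 26402 genes that reached 1 normalized count in total. On simulated data of 25161 genes with 200 changed 8-fold, it recovered 90.5% with 1 false call. The changed genes were drawn from those with a mean of at least 10, with the same dispersion for all genes and no replicate effect. The called chains differed by less than 8-fold, so these values do not give the power or error rate for them. The members and lists were chosen with earlier results of these data known. Genes named are the 9 chains, Lama1, up to 5 called genes per partner list with the largest absolute log2 fold change, and the 3 nearest genes of each called chain. The remaining called partners, Dag1, Hspg2 and marker genes were named after their values were seen. The deviations of same-numbered libraries correlated at 0.245, 0.125 and 0.144 over 13515 genes (different numbers -0.245 to 0.150). These ranges overlap and the labels do not say what the numbers share, so the replicate block is given only beside the calls. Positions in GENCODE M21 equal those of the table for 9 of 9 chains. Plots were drawn with Matplotlib 3.10.9 and tables with Python 3.11.15, NumPy 2.4.6, pandas 2.3.3 and SciPy 1.17.1. Some items, and the gamma chain shares that need them, are not reported here. Counting intervals and the limit of 3 counts cover counting error only.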

Additional observations from a re-analysis of the deposited data

How the results depend on the processing

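No alternative turned the direction of any of the 9 chains, and the median of the 9 stayed between 1.27 and 1.96 when a library was left out. The calls were less stable than the directions. With no filter on low counts, 21 genes were higher and 7 lower, with 0 chains in either direction and 0 partner genes, against 703, 517, 4, 1 and 16 in the main test (1736 higher and 2058 lower at an unadjusted p under 0.05). With the replicate block, 0 genes were called in either direction by limma (1851 higher and 2567 lower at an unadjusted p under 0.05), and so 0 chains and 0 partners, while the block over genes with a mean of at least 10 called 871 lower. Adding 0.1 before the log gave 336 genes lower and 2 chains higher, and adding 5 also gave 2 chains higher, since Lamb1 and Lamc1 then had adjusted p-values above 0.05 (0.0556 and 0.0758 with 0.1, 0.0691 and 0.0536 with 5). Genes lower numbered 1006 with limma-voom and 969 with array quality weights. When a call needed an unadjusted p under 0.05 and a change of over 1 on the log2 scale, 1607 genes were higher, 2273 lower and 26 partners called. Leaving out 1 library gave 0 to 98 genes higher, 0 to 166 lower, 0 chains higher, 0 chains lower and 0 to 1 partners. In the 4 fits with 0 calls, without Col6a1+ replicate 1, 2 or 3 or Col6a1- replicate 1, 1526 to 2434 genes were higher and 2029 to 2639 lower at an unadjusted p under 0.05. The difference in the share of Lamb2 (main 0.789 points) ranged from -0.240 to 2.02 points when a library was left out, being negative without Col6a1+ replicate 3. The cause of these moves was not tested, except that the unfiltered fit includes genes at 0 in every library. Scaling by library size alone left all calls of the chains as they were, with Lama2 at 2.24 and Lamb3 at -2.25 on the log2 scale. With 3 libraries a group, Lama3 and Lamc3, which have few counts, have wide intervals (SE 0.60 and 1.08). So does Lama4 (SE 0.58), which has more counts.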
